A study of Mus musculus with 9 samples.

Results

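The messenger RNA of 10 genes of heterotrimeric G protein signalling was measured in the left ventricle of male C57BL/6 mice, the inbred strain of the study, 6 weeks after surgery. They encode the Gq-class alpha subunits Gnaq and Gna11, the G12/13-class subunit Gna13, the Gi-class subunits Gnai2 and Gnai3, the phospholipases C Plcb1 and Plce1, and the regulators of G protein signalling Rgs2, Rgs3 and Rgs4. Members were found by symbol: every probe set that the platform annotation pairs with exactly 1 gene symbol equal to a member was taken, which gave 37 probe sets for 10 of the 18193 genes measured. The surgery groups were transaortic constriction (TAC, n = 4 arrays), in which the aorta is narrowed so that the ventricle pumps against a raised pressure, and sham surgery (n = 5 arrays). No transgene, deletion or drug is labelled in either group, the sources used here state no age, and per the labels TAC was done to bring on heart failure. Per the series title the study concerns cardiomyocyte HIPK2, a protein kinase, and ERK signalling. The arrays measured total RNA of whole ventricle, with all its cell types.

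Heterotrimeric G proteins carry signals from cell surface receptors. In the heart, Gq-class subunits are activated by angiotensin II, endothelin and alpha-adrenergic receptors and switch on phospholipase C beta, which cleaves a membrane phospholipid into inositol trisphosphate (IP3) and diacylglycerol; this route is a well known driver of hypertrophic growth. Gna13 carries signals of receptors for lipids such as lysophosphatidic acid, and Gi-class subunits inhibit adenylyl cyclase, while RGS proteins speed up the GTP hydrolysis of the alpha subunits and so shorten the signal, Rgs2 with a preference for the Gq class. Plce1 is a phospholipase C that also responds to Ras and Rap proteins.

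Each array gave 1 log2 value for every probe set, made by RMA, which subtracts background, gives all arrays a common distribution and combines the single probes. Where a gene had several probe sets, the brightest, that with the highest mean over the 9 arrays, stood for the gene. Differences are TAC minus sham, with the standard error (SE) of a limma fit, and a feature was called at a Benjamini-Hochberg adjusted p below 0.05, taken over all 18193 genes or over all 45037 probe sets that are not array controls. With 9 arrays, and with no statement in the labels that ties each array to its own mouse, the p-values rest on the spread seen among these samples, which may be technical. Over genes, any pair of TAC arrays correlated at 0.995 to 0.997, any pair of sham arrays at 0.987 to 0.997 and pairs across the groups at 0.974 to 0.988. Replicates are numbered in accession order, which only names them. Sham replicate 2 had the lowest sham mean for 5 of 6 cell type marker lists and the highest for cardiomyocyte markers. The 8 cardiomyocyte markers averaged 14.09 to 14.13 in sham arrays and 14.04 in TAC arrays, each TAC array being below each sham array. Limma called 1 of the 8 lower and 0 higher, and 0 to 1 lower when 1 array was left out. The cardiomyocyte marker levels were far above the median signal and near the highest value on the arrays, 14.80. By contrast, the 7 measured T and B cell markers averaged 5.58 to 5.98, below the median of 6.57.

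Rgs2 was the member that changed most. It was 3.08-fold lower in TAC than in sham ventricles, and its level in each TAC array was below that in each sham array. Gna13, Plcb1, Gnai3 and Gnai2 were higher by 1.33-fold, 1.41-fold, 1.26-fold and 1.17-fold. Gnaq, Gna11, Plce1, Rgs3 and Rgs4 did not pass the threshold. So 5 of the 10 members were called in limma, 4 higher and 1 lower, where 25.1% of all genes were called, 12.8% higher and 12.3% lower. For 4 members the groups did not overlap, as for 25.2% of all genes. At the level of probe sets 10 of 37 were called higher and 3 lower, where 17.7% of all probe sets were called, 8.87% higher and 8.86% lower. The probe sets of a gene were read on the same arrays and share a target gene, so they are not replicates. All 10 members were brighter than the median gene, and in a fit of the 9096 brighter genes alone 45.3% of genes were called beside 5 of the 10 members. Among the 22518 brighter probe sets 35.9% were called, beside 13 of 25 member probe sets. The median member difference was 0.19, against -0.00 over all genes, and without regard to sign the median was 0.23 against 0.15. Subtracting each array's median over genes (centring), which moved the median difference over all genes to -0.05, left 2 members called higher and 2 lower. Among all genes that centring gave 1978 higher and 2907 lower calls in place of 2333 and 2232, so that 40.5% instead of 51.1% of the calls were higher.

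**Figure D1:**
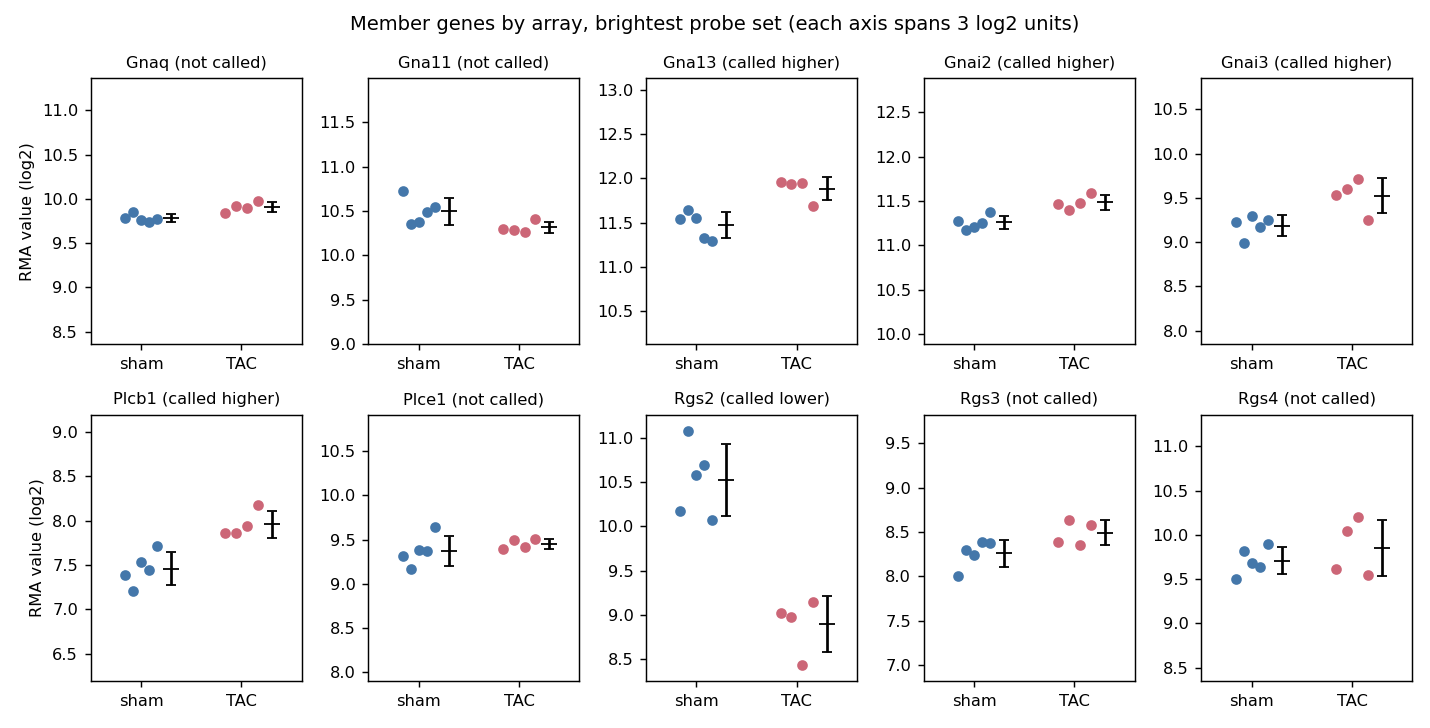
RMA value (log2) of each of the 10 member genes at its brightest probe set, 1 point per array for 5 sham (blue) and 4 TAC (red) arrays, with the mean and SD in black; every axis spans 3 log2 units. Rgs2 fell from a sham mean of 10.52 to a TAC mean of 8.89, and the other members differed by at most 0.50 in either direction.

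The start regions of 3 members are shown as examples of the 3 outcomes: Rgs2, which fell, another RGS gene, Rgs4, which did not pass, and Gna13, whose probe sets were all called higher. Sequences are from RefSeq on GRCm38.p6 and run 5′ to 3′ on the gene's strand, from 250 bases before to 50 bases after the start of the gene. Rgs2 is at chr1:144004100-144004399 on the minus strand, Rgs4 at chr1:169747593-169747892 on the minus strand and Gna13 at chr11:109362544-109362843 on the plus strand. Capitals mark matches, on either strand, to a set of known promoter motifs. These were the half-site of the cAMP response element, written TGACG, and the box motif written CCAAT. The TATA box was searched as TATAAA, and the motif known as the GC box as GGGCGG. No match to one motif overlapped a match to another in these windows.
Rgs2: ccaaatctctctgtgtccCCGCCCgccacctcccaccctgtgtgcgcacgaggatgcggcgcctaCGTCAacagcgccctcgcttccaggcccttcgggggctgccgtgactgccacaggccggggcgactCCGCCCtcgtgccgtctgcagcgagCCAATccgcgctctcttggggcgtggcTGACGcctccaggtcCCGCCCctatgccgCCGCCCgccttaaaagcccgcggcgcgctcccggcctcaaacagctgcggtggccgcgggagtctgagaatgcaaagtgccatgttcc
Rgs4: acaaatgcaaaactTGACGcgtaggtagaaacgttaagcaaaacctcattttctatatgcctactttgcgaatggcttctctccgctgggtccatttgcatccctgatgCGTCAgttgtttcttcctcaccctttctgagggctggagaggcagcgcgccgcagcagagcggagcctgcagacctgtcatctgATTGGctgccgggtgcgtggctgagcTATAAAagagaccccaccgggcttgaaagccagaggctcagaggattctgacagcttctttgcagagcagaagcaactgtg
Gna13: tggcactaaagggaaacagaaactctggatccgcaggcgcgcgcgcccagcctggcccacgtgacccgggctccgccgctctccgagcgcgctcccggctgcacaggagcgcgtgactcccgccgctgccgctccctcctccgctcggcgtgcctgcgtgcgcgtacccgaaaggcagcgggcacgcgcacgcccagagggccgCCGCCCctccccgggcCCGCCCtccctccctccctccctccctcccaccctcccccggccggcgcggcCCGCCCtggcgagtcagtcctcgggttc
The Rgs2 and Rgs4 regions each held 2 matches to TGACG, which 20.8% of all 32851 RefSeq start regions of this length held at least once and 5.01% at least 2 times. They also held 1 CCAAT match each, as 37.4% of all regions did at least once. The Rgs4 region had 1 match to TATAAA, beginning 31 bases before the start (13.6% of all regions hold one), and no GGGCGG. The Rgs2 region had 4 matches to GGGCGG and the Gna13 region 3, and 19.5% of all regions held at least 2. For Gna13 only the GC box was found in this window. The GC content was 70.0% for Rgs2, 53.0% for Rgs4 and 76.7% for Gna13. Start regions were found for 9 of the 10 members, all but Gnai2, and Rgs3 had 2. A match is a run of letters and not a measured binding site.

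Rgs2, which turns off Gq signalling and is itself known to respond to Gq and cAMP signals, had sham values of 10.17, 11.08, 10.58, 10.69 and 10.07 (mean 10.52 ± 0.41, SD, n = 5) and TAC values of 9.03, 8.97, 8.43 and 9.14 (8.89 ± 0.32, SD, n = 4). The lowest sham array stood well above the highest TAC array. The difference was -1.63 (SE 0.21, 95% confidence interval -2.09 to -1.16, limma adjusted p = 0.000346). Sham replicate 2 had the highest Rgs2 value, and without it the difference was -1.49 (adjusted p = 0.000278). In bulk tissue, fewer cells of a type and less RNA per cell cannot be told apart.

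The 4 Rgs2 probe sets split by brightness. Probe set 1419248_at differed by -1.59 (SE 0.19, adjusted p over all probe sets = 0.000289) and 1419247_at by -1.58 (SE 0.21, adjusted p = 0.000524), each close to the brightest, 1447830_s_at. In all 3 the groups did not overlap, as was so for 10 of the 37 member probe sets and 19.8% of all probe sets. The fourth, 1443250_at, averaged 3.87, far below the median signal of the arrays, and was at -0.23 (adjusted p = 0.294). The mean of the 4 probe sets differed by -1.25 and was still called. Smooth muscle is a known site of Rgs2 expression, and of the 8 smooth muscle and pericyte markers 2 were called higher (1 without TAC replicate 1 or 3) and 4 lower. The mean of these markers was 9.70 to 9.99 in sham and 9.63 to 9.92 in TAC arrays. The part of these cells in the Rgs2 difference was not tested.

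**Figure D2:**
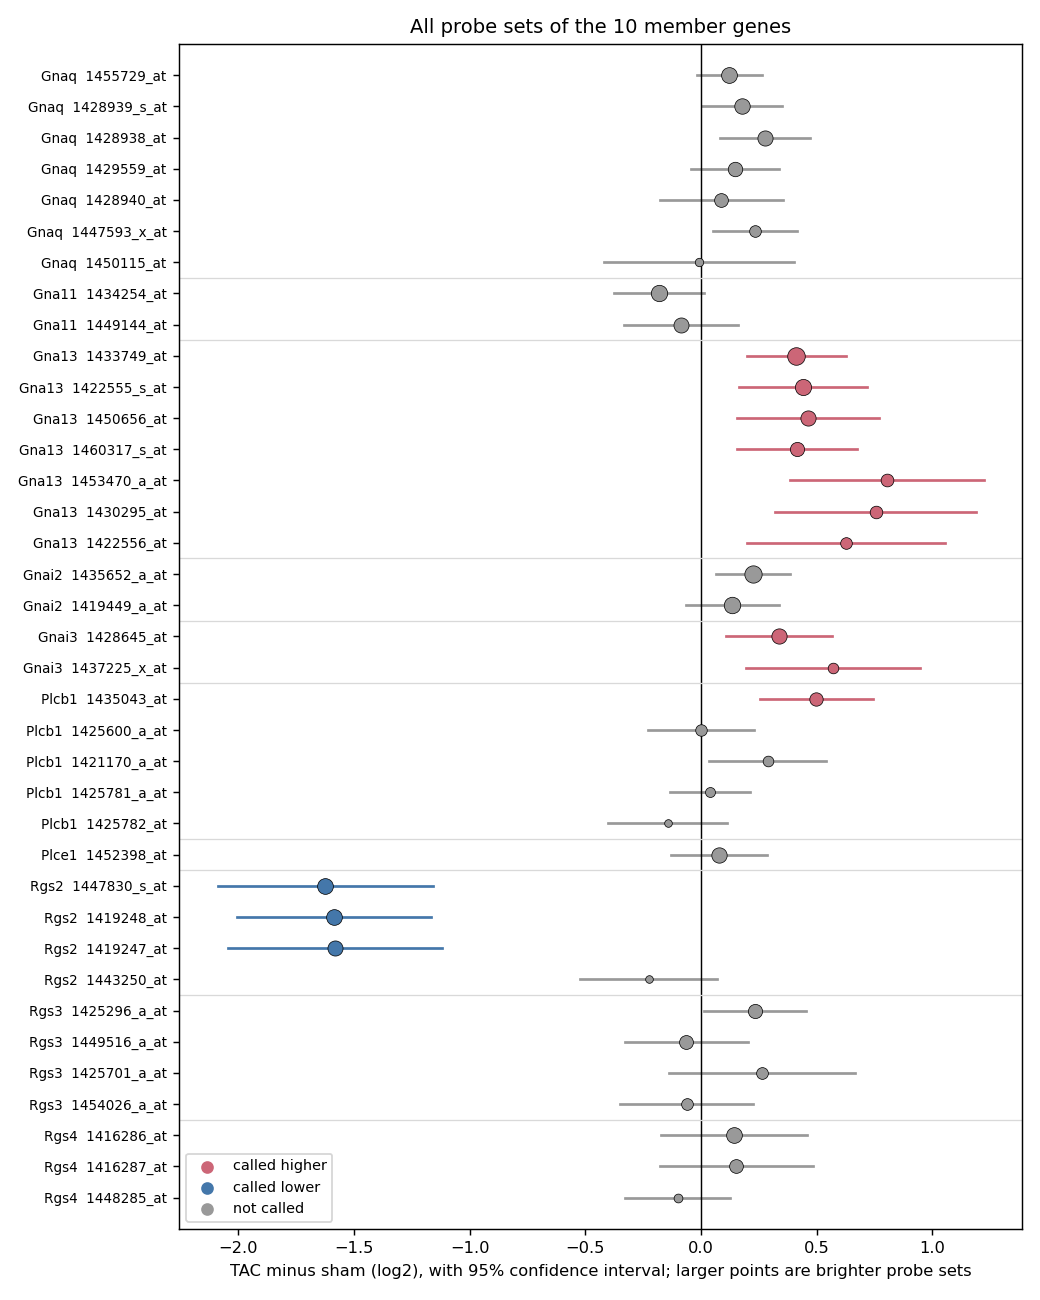
Difference between TAC and sham (log2, points) with its 95% confidence interval (lines) for all 37 probe sets of the members, grouped by gene and ordered from bright to dim; red and blue mark probe sets called higher and lower and grey those not called. The 7 Gna13 probe sets lie between 0.41 and 0.80, and 3 of 4 Rgs2 probe sets near -1.6.

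The profile of Rgs2 over the 9 arrays, taken as log2 values minus the sham mean, was nearest to those of Ankrd63, Syde2 and Kcnj3, with root mean square distances of 0.112, 0.204 and 0.206, and 6 genes in all lay within 0.25. Ankrd63, Syde2 and Kcnj3 differed by -1.72, -1.43 and -1.53. Kcnj3 encodes a subunit of the potassium channel that Gi-coupled receptors open through G beta gamma. For Plcb1 the nearest genes were Smc4, Filip1 and Prelid1 (distances 0.0550, 0.0635 and 0.0692), with 1910 genes within 0.25. For Gna13 they were Rnft1, Trappc4 and Bmpr1a (0.0468, 0.0571 and 0.0615), with 2870 genes within 0.25. The distance takes in the difference between the groups as well as the spread within them.

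The other RGS members did not pass. Rgs4, which acts on Gi and Gq subunits, had sham values of 9.50, 9.81, 9.68, 9.64 and 9.89 and TAC values of 9.62, 10.04, 10.20 and 9.54. TAC replicates 2 and 3 lay above all sham arrays, and replicates 1 and 4 within their range. The difference was 0.14 (SE 0.14, 95% confidence interval -0.17 to 0.46, limma adjusted p = 0.516), and the other 2 probe sets differed by 0.15 and -0.10. Rgs3 had sham values of 8.001, 8.29, 8.24, 8.38 and 8.38 and TAC values of 8.39, 8.64, 8.36 and 8.58, with a difference of 0.23 (SE 0.10, adjusted p = 0.110). Its groups overlapped by a narrow margin. The other 3 Rgs3 probe sets differed by -0.06, 0.27 and -0.06, and in limma 0 of 4 passed over all probe sets, while the trend and robust options of limma gave 0 as well. An unadjusted p below 0.05 was found for 1 of them.

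The unequal change of related members was tested on the difference between 2 genes within each array, for 6 pairs, with an exact permutation test (two-sided, 126 ways to part 9 arrays into 5 and 4). Rgs2 minus Rgs3 differed by -1.86 between the groups and Rgs2 minus Rgs4 by -1.77. In each of these pairs every TAC array was below every sham array, with an exact permutation p of 0.00794, the smallest the design can give, and 0.0159 after adjustment over the 6 pairs. Rgs2 alone already parted the groups, while Rgs3 and Rgs4 did not pass, so these results are not independent of the Rgs2 fall. Rgs3 minus Rgs4 differed between the groups by 0.09, with an SD of 0.11 over sham and 0.37 over TAC arrays (exact permutation p = 0.627, adjusted 0.627). Without TAC replicate 4 that difference was -0.04.

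**Figure D3:**
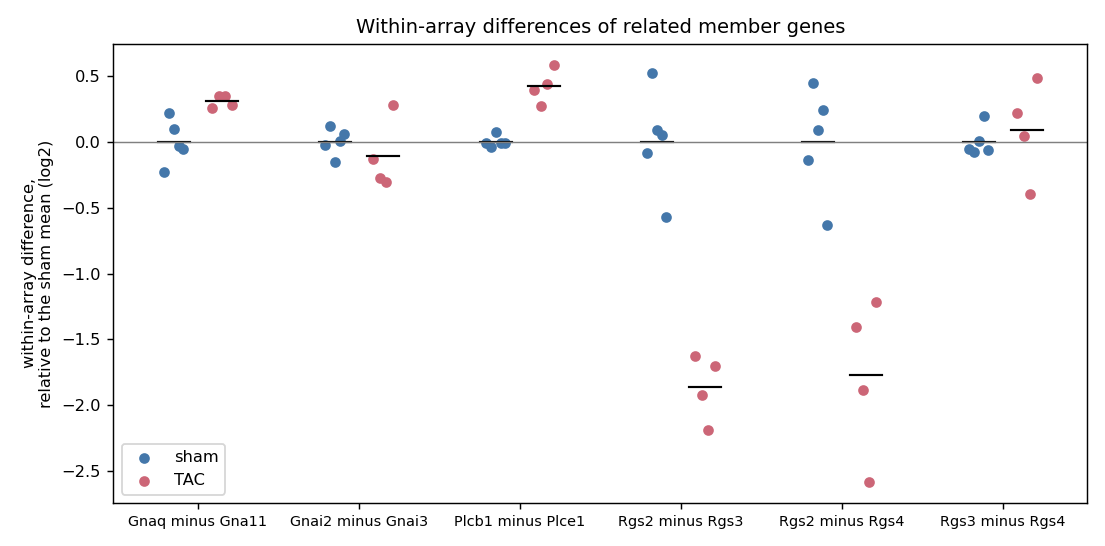
Within-array difference between 2 related members (log2), relative to the sham mean of the pair, 1 point per array for 5 sham (blue) and 4 TAC (red) arrays, with group means as black lines. The TAC mean is -1.86 for Rgs2 minus Rgs3 and -1.77 for Rgs2 minus Rgs4, and the groups overlap for Gnai2 minus Gnai3 and for Rgs3 minus Rgs4.

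Neither Gq-class subunit passed among genes. Gnaq had sham values of 9.79, 9.86, 9.77, 9.74 and 9.78 and TAC values of 9.84, 9.92, 9.90 and 9.97, a difference of 0.12 (SE 0.06, 95% confidence interval -0.01 to 0.25, limma adjusted p = 0.156). Sham replicate 2 lay above TAC replicate 1, and otherwise the TAC values were the higher ones. The other 6 Gnaq probe sets differed by -0.01 to 0.28. In limma 0 of 7 passed over all probe sets, 3 had an unadjusted p below 0.05, and the nearest was 1428938_at, at 0.28 (SE 0.09, adjusted p = 0.0519). With limma's trend and robust options it was the single Gnaq probe set to pass (adjusted p = 0.0349).

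Gna11, the other widely expressed Gq-class subunit, had sham values of 10.73, 10.35, 10.38, 10.49 and 10.54 and TAC values of 10.30, 10.28, 10.27 and 10.41. TAC replicate 4 lay within the sham range and the other TAC arrays just below it. The difference was -0.18 (SE 0.08, 95% confidence interval -0.37 to 0.00, adjusted p = 0.149), and it passed when arrays were centred on their medians (-0.23, adjusted p = 0.0420). Gnaq rose relative to Gna11 within arrays, by 0.30 (exact permutation p = 0.0159, adjusted 0.0238 over the 6 pairs), and the groups did not overlap. The adjusted p of this pair was 0.0536 without TAC replicate 1, 2 or 3, where the difference was 0.32, 0.29 and 0.29. With an array left out there are fewer ways to part the arrays, so the exact p moves in coarser steps.

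Gna13 was higher in TAC at each of its 7 probe sets, and at 4 of them the groups did not overlap. At the brightest the sham values were 11.54, 11.64, 11.55, 11.33 and 11.30 (mean 11.47 ± 0.15, SD, n = 5) and the TAC values 11.96, 11.94, 11.95 and 11.69 (11.88 ± 0.13, SD, n = 4). TAC replicates 1, 2 and 3 lay close together, and replicate 4 lay lower, just above the highest sham array. The difference was 0.41 (SE 0.09, 95% confidence interval 0.20 to 0.62, limma adjusted p = 0.00922). The largest differences, 0.80 at 1453470_a_at and 0.75 at 1430295_at, came with sham values of 6.14 and 5.94 in replicate 2 that lay far below the other sham arrays. Without sham replicate 2 these differences were 0.64 and 0.56. The brightest probe set kept its call over all probe sets when any 1 array was left out (adjusted p up to 0.0497), while the other 6 lost it in 1 to 7 of these 9 fits, with adjusted p up to 0.135. The call of Gna13 among genes held in all 9 (adjusted p up to 0.0331).

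The Gi-class members were higher by small amounts. Gnai2 had sham values of 11.28, 11.18, 11.21, 11.25 and 11.38 and TAC values of 11.47, 11.40, 11.47 and 11.59. The lowest TAC value was just above the highest sham value, and the difference was 0.23 (SE 0.07, limma adjusted p = 0.0313 over genes). Over all probe sets the same values had an adjusted p of 0.0549, and the other probe set, at 0.14, did not pass (adjusted p = 0.362). Leaving out sham replicate 1, 3 or 4 or TAC replicate 1, 3 or 4 ended the Gnai2 call among genes, with adjusted p from 0.0503 to 0.0784, and so did the mean of its probe sets (0.18, adjusted p = 0.0863) and centring (0.18, adjusted p = 0.0632).

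Gnai3 had sham values of 9.23, 8.99, 9.29, 9.17 and 9.25 and TAC values of 9.54, 9.60, 9.71 and 9.25. TAC replicate 4 lay within the sham range and the other 3 above it. The difference was 0.34 (SE 0.10, limma adjusted p = 0.0337), and the dimmer probe set rose by 0.57 (SE 0.17, adjusted p over all probe sets = 0.0414). That probe set averaged 5.66, below the median signal of the arrays. The call among genes was lost without sham replicate 2 or 4 or TAC replicate 1, 2 or 3 (adjusted p = 0.0526 to 0.106) and with centring (0.29, adjusted p = 0.0512). Over all probe sets, leaving out 1 array ended the call of the brighter probe set in 8 fits (limma adjusted p up to 0.145). For the dimmer one the call ended in 6 fits (up to 0.128). Gnai2 minus Gnai3 differed between the groups by -0.11 within arrays, with an SD of 0.10 over sham and 0.27 over TAC arrays (exact permutation p = 0.413, adjusted 0.495). Without TAC replicate 4 it was -0.24, with an adjusted p of 0.0429. Macrophages are known to express Gnai2 and Gna13. Of the 8 macrophage markers 6 were called higher in TAC, while Cd68, at 0.47, and Cd163, at -0.40, did not pass (limma adjusted p = 0.0825 and 0.0564). Cd163 was called lower without sham replicate 1 and with 4 of the other settings (the brighter genes only, trend and robust options, array weights, centring). The mean of the 8 was 9.0 to 9.47 in sham and 9.85 to 9.96 in TAC arrays. Of the 8 fibroblast markers 5 were higher, and their mean was 10.96 to 11.12 in sham and 11.41 to 11.74 in TAC. The part of these cells in the Gnai2, Gnai3 and Gna13 differences was not tested.

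Plcb1, one of the phospholipase C beta genes whose products Gq subunits activate, had sham values of 7.39, 7.21, 7.54, 7.44 and 7.72. Its TAC values were 7.86, 7.86, 7.94 and 8.17. All TAC arrays were above the sham arrays. The difference was 0.50 (SE 0.11, 95% confidence interval 0.26 to 0.74, limma adjusted p = 0.00680). The other 4 Plcb1 probe sets, whose signals averaged below the array median, differed by 0.29 (adjusted p over all probe sets = 0.115), 0.04, -0.00 and -0.14. In limma 0 of these 4 passed, 1 reached an unadjusted p below 0.05, and 0 passed with the trend and robust options. Averaged over the 5 probe sets, Plcb1 was at 0.14, short of the threshold (adjusted p = 0.182). Whether these probe sets reach different Plcb1 transcripts was not tested. The other phospholipase C beta genes did not pass. Plcb4 was at 0.003, Plcb3 at -0.13 and Plcb2 at -0.21 (limma adjusted p = 0.990, 0.221 and 0.289).

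Plce1, measured by 1 probe set, had sham values of 9.31, 9.17, 9.38, 9.37 and 9.64 and TAC values of 9.39, 9.50, 9.41 and 9.51. The TAC values lay inside the sham range, and the difference was 0.08 (SE 0.09, 95% confidence interval -0.12 to 0.28, adjusted p = 0.590). Plcb1 rose relative to Plce1 within arrays by 0.42 (exact permutation p = 0.00794, adjusted 0.0159), with no overlap between groups. With the mean of the Plcb1 probe sets that difference was 0.06 (adjusted p = 0.743). At its brightest probe set Plcb1 alone already parted the groups, while Plce1 did not pass, so the pair result is not independent of the Plcb1 rise.

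Around the members, 11 lists of other genes of these pathways were counted, with 121 of 137 genes measured. Of the 121, 34 were called higher and 25 lower in TAC, together 48.8% where 25.1% of all genes were called, and the median difference was 0.02. In the fit of the brighter genes alone 40 of 64 list genes were called, 62.5%, where 45.3% of all genes were. The lists were drawn up with earlier results of these data known.

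Among the 8 other G alpha genes 1 was higher and 3 were lower. Gnao1, which encodes the Go subunit, had sham values of 8.16, 7.83, 7.91, 7.88 and 7.81 and TAC values of 8.70, 8.46, 8.61 and 9.01. The groups did not overlap, and Gnao1 was higher by 0.78 (SE 0.11, adjusted p = 0.000743), though its 2 dimmer probe sets, at 0.12 and 0.19, did not pass. Gnai1, the third Gi-class gene, had sham values of 8.24, 8.70, 8.41, 8.28 and 8.34 and TAC values of 7.93, 7.91, 7.999 and 7.47. All TAC arrays were lower, and the difference was -0.57 (SE 0.13, adjusted p = 0.00809), opposite in sign to Gnai2 and Gnai3. Gnaz fell by 0.37. Gna12, the partner of Gna13 in its class, was lower by 0.27 (SE 0.07, adjusted p = 0.0191), a call lost without TAC replicate 2 (0.0556) or 3 (0.0522) and with the mean of its 5 probe sets (-0.09, adjusted p = 0.608).

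G beta and gamma subunits were 5 higher and 1 lower of 14. Gng8 rose by 1.14 (SE 0.12, adjusted p = 6.80e-05), Gng13 by 1.10, Gng10 by 0.53, Gng12 by 0.29 and Gnb4 by 0.28, and Gng7 fell by 0.33. The signals of Gng13 (mean 5.24 in sham, 6.35 in TAC) and Gng7 (5.38 and 5.05) were below the median signal of the arrays. Gng8 was below it in sham (6.14) and above it in TAC (7.28). The dimmer Gng13 probe set, at 0.17, did not pass. The Gnb4 call was lost without TAC replicate 2 or 3 (adjusted p = 0.0564 and 0.0568) and with the mean of its probe sets (0.36, adjusted p = 0.0983). Without TAC replicate 2 or 3 the list had 3 higher calls. The Gng7 call rests on most single arrays: 0 of the list were lower without sham replicate 1, 3, 4 or 5, without TAC replicate 1, 2 or 3, or with limma's trend and robust options.

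The RGS genes outside the members went both ways, 4 higher and 1 lower of 16, with 2 lower without sham replicate 3 and 4 lower with the mean of probe sets. Rgs7, an RGS gene best known from neurons, fell by 1.17, from sham values of 6.16, 5.98, 6.22, 5.93 and 6.09 to TAC values of 5.07, 5.01, 4.86 and 4.67 (SE 0.10, adjusted p = 2.16e-05). Its membrane anchor Rgs7bp fell by 0.54, and all 3 probe sets of Rgs7bp were called lower. Rgs11 rose by 0.85, Rgs19 by 0.66, Rgs10 by 0.52 and Rgs14 by 0.28. The signals of Rgs7 (mean 6.07 in sham, 4.90 in TAC), Rgs11 (4.56 and 5.41) and Rgs14 (5.34 and 5.62) were below the median signal of the arrays. So was the signal of Rgs7bp, with means of 6.55 in sham and 6.02 in TAC at its brightest probe set. Leaving out 1 array gave 3 to 4 higher calls in this list. Rgs10 and Rgs19 are abundant in immune cells. Of the macrophage markers 6 of 8 were higher, as given above. Of the T and B cell markers, at signals below the array median, limma called 0 of 7, with 0 at an unadjusted p below 0.05. The part of immune cells in these differences was not tested. Rgs5, known from pericytes, was at -0.12 and did not pass (adjusted p = 0.165).

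Of the 12 other phospholipase C genes 1 was higher and 2 were lower. Plcg2, which acts in immune receptor signalling, had sham values of 8.14, 6.89, 7.93, 8.05 and 8.09 and TAC values of 9.05, 8.93, 8.90 and 9.14. Sham replicate 2 was far below the other sham arrays, and all TAC arrays were above them. Plcg2 was higher by 1.18 (SE 0.23, adjusted p = 0.00377), and without sham replicate 2 by 0.95. Plcl2, a catalytically inactive relative, fell by 0.50, and Plcd1 was lower by 0.26, a call lost without sham replicate 3, 4 or 5 or TAC replicate 1, 2 or 3 (adjusted p = 0.0530 to 0.0995). Without sham replicate 5 or TAC replicate 3 the list had 2 higher calls. Over all probe sets the dimmer Plcd1 probe set, at -0.29, was called lower (adjusted p = 0.0172), and the brighter one was not (adjusted p = 0.0538).

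Modulators of G alpha subunits outside the RGS family were 4 higher and 4 lower of 9. The GDP dissociation inhibitors Gpsm3 and Gpsm1 went apart, Gpsm3 higher by 0.64 and Gpsm1 lower by 0.47. Ccdc88a, which encodes the Gi activator girdin, rose by 0.53. Rgs7bp is counted in this list.

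Downstream of IP3 and diacylglycerol, 5 of 12 channel and kinase genes were higher and 3 lower, with 3 higher without sham replicate 3, 4 or 5 or TAC replicate 2 or 3. Prkca, the conventional protein kinase C alpha, had sham values of 9.21, 9.15, 9.20, 9.23 and 9.16 and TAC values of 9.63, 9.66, 9.68 and 9.53. The groups lay clearly apart, and Prkca rose by 0.43 (SE 0.06, adjusted p = 0.00045), with all 3 probe sets called higher. Prkcq, a kinase of the diacylglycerol-responsive class, fell by 0.50 (SE 0.06, adjusted p = 0.000221), and protein kinase D Prkd1 fell by 0.52. Trpc6, a channel opened by diacylglycerol, rose by 0.47 at a signal below that of most genes. Genes that remove these messengers were 3 higher and 4 lower of 11. The higher calls were 1 without sham replicate 4 or TAC replicate 4 and 0 without TAC replicate 3, and the lower calls 2 without TAC replicate 1 or 2. Among the lower genes were the diacylglycerol kinases Dgka, at -0.43, and Dgke, at -0.42. The IP3 kinase Itpkb was lower by 0.33 and the IP3 phosphatase Inpp5a higher by 0.22. The Itpkb call was lost without TAC replicate 1 or 2 (adjusted p = 0.0607 and 0.0532), and the Inpp5a call without TAC replicate 2 or 3 (0.0648 and 0.0538) and with centring (0.17, adjusted p = 0.0799).

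Of the 6 Ras-family, Epac and scaffold genes around Plce1, 3 were higher: Rras by 0.55, Rap1b by 0.28 and the scaffold Akap6 by 0.20. In this list limma called 0 lower, with 0 at an unadjusted p below 0.05 and 0 by the trend and robust options. The Akap6 call was lost without sham replicate 1, 3 or 5 or TAC replicate 1, 2 or 3 (adjusted p = 0.0518 to 0.100) and with centring (0.15, adjusted p = 0.149). It was also lost with the mean of its probe sets (0.13, adjusted p = 0.221), and over all probe sets neither of them passed (adjusted p = 0.0595 and 0.795).

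Receptors above the members went both ways. Of 14 measured Gq-coupled receptor genes 5 were higher and 4 lower. Ednra, Adra1a, Adra1d, F2rl1 and Htr2a were listed too but not measured, so these counts leave them out. F2r, the thrombin receptor, rose by 1.00 (SE 0.09, adjusted p = 2.96e-05), Ednrb by 0.66 and P2ry6 by 0.92, while P2ry1 fell by 0.56. Differences in this list ran from -1.03, in a gene that is not among those named by smallest p, to 1.00. For the Gi-coupled receptors, Adora1, Chrm2, Adra2a and Adra2b were listed but not measured. Of the 11 measured genes 1 was higher and 1 lower, C5ar1 by 0.48 and Npy1r by -0.43. Leaving out TAC replicate 3 ended both calls (adjusted p = 0.0520 and 0.0691), as did the mean of their probe sets (0.476 and 0.0765), and without sham replicate 1 the list had 2 lower calls. The Npy1r signal averaged 3.91 in sham and 3.48 in TAC, far below the median signal of the arrays. Its dimmer probe set, at -0.05, did not pass. Of 8 receptors that couple to G12/13, 2 were higher and 2 lower. Lpar1 rose by 0.72 and S1pr2 by 1.10, and S1pr3 fell by 0.77 and Lpar6 by 0.34. The Lpar6 call was lost without TAC replicate 1 or 2 (adjusted p = 0.0535 and 0.0605).

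**Figure D4:**
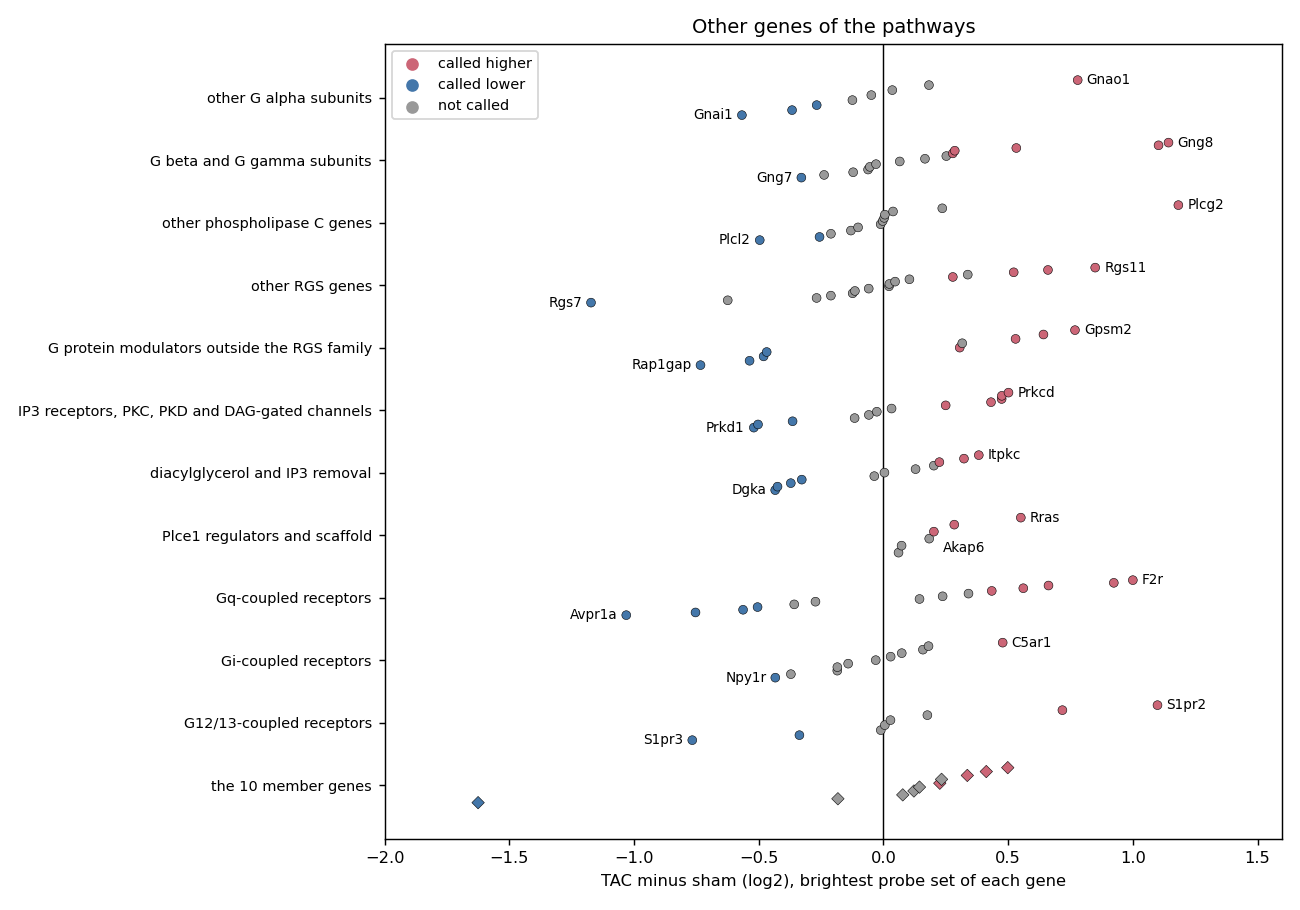
Difference between TAC and sham (log2) at the brightest probe set of each gene, 1 row for each of 11 pathway lists (circles) and 1 for the 10 members (diamonds). Red marks genes called higher, blue genes called lower and grey the rest. In the list rows the lowest and highest called genes are named, and in the members' row none is. Rgs2, at -1.63, lies below every other gene drawn, and Plcg2, at 1.18, has the highest value.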

How the data were processed

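Each of 9 Affymetrix mouse arrays measured left ventricle RNA. The authors deposited 1 table of log2 values made with RMA, per the submitters' processing notes; the sources used here name no software or version. Of 45101 probe sets 64 controls were left out. The platform annotation gave 34945 probe sets 1 symbol and 932 several, and 9160 were not listed; 34741 single symbols were matched to RefSeq (GRCm38.p6) by gene ID, 204 were not, and 0 changed. The table had 0 columns that belong to no sample.

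Groups came from the labelled treatment. The fits were lmFit and eBayes of limma 3.58.1 (R 4.3.3), with 7 residual and 3.27 prior degrees of freedom for genes, two-sided, with Benjamini-Hochberg adjustment. Arrays have no sampling depth, so their number limits the precision. Values of RMA compress low signals. Signals of different probe sets depend on the probes too and were used only to choose a gene's probe set, to tell bright from dim and to set markers against the array median. The members and lists were chosen with earlier results of these data known; 1 further list is not reported here. Named genes were all members; up to 4 called genes of smallest p in each list; and, for the 3 called members with the largest differences, the 3 genes with the nearest profiles. Gng7, Gng12, Rgs5, Rgs14, Plcb2, Plcb3, Plcb4, Cd68 and Cd163 were named after their values were seen. Alternatives were a gene's probe sets averaged, only the brighter features, only probe sets with 1 symbol, limma's trend and robust options, weights per array, cyclic loess, centring, a threshold of 0.01 and 1 array left out at a time. In simulated data limma recovered 62.7%, 95.5% and 100% of genes changed by 0.5, 1 and 2 log2 units (18193 genes, 13 false of 185 calls). For probe sets the shares were 44.8%, 95.5% and 97.0% (45037 probe sets, 7 false of 165 calls). Far fewer genes were changed in the simulation than were called in the data (4565). Its cut-off after adjustment was therefore stricter, and these shares do not measure recovery in the real fit. Python 3.11.15 and matplotlib 3.10.9 were used for the sequences and figures.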

Additional observations from a re-analysis of the deposited data

Results flagged for a closer look

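In 8 of 74 groups of member probe sets, and 6 of 80 groups of the 40 other named genes, 1 array lay far from the rest of its group by Dixon's test, which chance gives in about 1 in 20 groups. Sham replicate 2 was that array in 2 and 1 of them. Gna13 accounted for 4. Its brightest probe set was at 11.69 in TAC replicate 4, with the nearest TAC array at 11.94. At 1453470_a_at sham replicate 2 was at 6.14 (nearest 6.88) and TAC replicate 4 at 7.25 (nearest 7.69), and at 1430295_at sham replicate 2 was at 5.94 (nearest 6.81). Gnaq 1428939_s_at was at 9.73 in TAC replicate 2 (nearest 9.61), and 1429559_at at 8.38 in sham replicate 5 (nearest 8.57). Gna11 1449144_at was at 9.26 in TAC replicate 2 (nearest 9.07), and Plcb1 1425781_a_at at 5.38 in sham replicate 1 (nearest 5.21).

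Among the other named genes, Plcg2 was at 6.89 in sham replicate 2 (nearest 7.93), Prkcq at 7.65 in sham replicate 4 (nearest 7.54), P2ry1 at 7.68 in sham replicate 5 (nearest 8.03) and Npy1r at 4.26 in sham replicate 1 (nearest 3.87). Gpsm3 was at 8.70 in TAC replicate 4 (nearest 8.45) and P2ry6 at 8.68 in TAC replicate 4 (nearest 8.82). Dixon's test does not say what set an array apart, and the cause was not tested.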

How the results depend on the processing

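Of 160 values of the member genes under alternatives, 142 kept their direction and their side of the threshold, 17 lost the call, 1 gained it and 0 changed sign. For member probe sets these counts were 502, 50, 14 and 14 of 580, and for pairs 66, 4, 1 and 1 of 72. Among genes, the calls of Rgs2 and Gna13 held in every alternative that was run. Of the 4 members called higher, 2 were left with the mean of probe sets, 2 with centring and 2 at an adjusted p below 0.01, and centring called 2 lower; leaving out an array gave 2 to 4 higher. The 10 member probe sets called higher became 0 at an adjusted p below 0.01, where the stricter threshold makes fewer calls by construction, and 2 to 11 without 1 array. The 59 calls in the pathway lists became 37 at 0.01 and 44 to 59 without 1 array, while all genes called went from 4565 to 2608 and to 3375 to 4914. Of pairs, 3 to 5 passed without 1 array. Small differences changed sign: Plcb1 1425600_a_at was 0.016 with cyclic loess and -0.076 to 0.049 without 1 array, Gnaq 1450115_at -0.14 to 0.083, Rgs3 1454026_a_at -0.13 to 0.0295, Rgs4 1416287_at -0.014 to 0.25 and Rgs3 minus Rgs4 -0.044 to 0.25. Where not stated, the cause was not tested. No paired analysis was possible because the replicate numbers follow accession order and the labels carry none. Signals near background limit the dim probe sets of Rgs2, Rgs4, Plcb1 and Gnaq.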
